A study of Mus musculus with 12 samples.

Results

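Cholesterol synthesis and its control by the transcription factor SREBP2 were examined in the mouse cortex through 7 genes: Hmgcs1, Sqle, Fdft1, Cyp51, Dhcr7, Srebf2 and Insig1. The genes were taken by symbol from a table of 33024 gene symbols, by a rule that reads no measured value, although the genes had been proposed with earlier results of these data known, and all 7 were among the 16059 genes with enough counts to be tested. RNA had been sequenced from the cortex of 12 wildtype C57BL/6 mice, 7 water-drinking controls (Control 1 to 7) and 5 ethanol-administered mice (EtOH 1 to 5). The latter could choose water or ethanol (20% by volume) for 12 hours of each night, from 30 days of age over 35 days. This binge-like paradigm is known as 2BC-DID. The ethanol-administered mice were then abstinent for 14 days (Arm #2), whereas the controls were offered water only. The study's results equate the drinking period with 5 weeks and its methods with 7 weeks. Per the methods, mice of Arm #2 went through behavioural tests after the abstinence and were killed once all tests were done. The tests were the Morris water maze, Y-maze, forced swim and rotarod. All mice were perfused with saline before the cortex was taken. Each library is bulk tissue, in which fewer cells of a type and less RNA per cell cannot be told apart. Nothing in the labels states whether the mice of a group shared a litter or a cage, and the p-values measure the spread between these 12 libraries.

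Most cholesterol of the brain is made within the brain, since lipoproteins of the blood hardly cross the blood-brain barrier, and myelin holds the greater part of it. The mevalonate pathway turns acetyl-CoA into farnesyl pyrophosphate, from which squalene, lanosterol and finally cholesterol are made. When sterols in the endoplasmic reticulum are scarce, SCAP carries the precursor of SREBP2 to the Golgi, where it is cleaved, and the released factor binds sterol regulatory elements near its target genes. When sterols are abundant, INSIG proteins hold SCAP and the precursor back. Insig1 and Srebf2 are themselves known targets of the pathway, as are the genes of the enzymes.

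The bases in front of 3 of the genes are shown because they are where a sterol-responsive factor would be expected to bind: those of Hmgcs1, a synthesis gene that passed the test below, and those of Srebf2 and Insig1, the factor and its brake. They are from the RefSeq promoter table (GRCm38.p6), were placed by an exact match in GRCm39, and end before the start of both the RefSeq transcript and the annotated gene. Hmgcs1 is shown for chr13:120151637-120151886 (plus strand), Srebf2 for chr15:82031220-82031381 (plus strand) and Insig1 for chr5:28276160-28276314 (plus strand). Capitals mark the core of the sterol regulatory element, TCACNCCAC, and the box bound by NF-Y, CCAAT, which reads ATTGG on the other strand.
Hmgcs1: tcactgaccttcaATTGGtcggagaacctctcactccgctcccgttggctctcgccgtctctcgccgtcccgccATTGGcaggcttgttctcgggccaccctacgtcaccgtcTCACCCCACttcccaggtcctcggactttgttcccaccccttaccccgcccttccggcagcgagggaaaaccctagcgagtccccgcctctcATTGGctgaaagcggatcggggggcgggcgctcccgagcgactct
Srebf2: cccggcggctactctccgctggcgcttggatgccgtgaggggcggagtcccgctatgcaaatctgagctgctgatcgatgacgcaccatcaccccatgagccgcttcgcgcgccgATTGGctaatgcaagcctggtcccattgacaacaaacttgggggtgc
Insig1: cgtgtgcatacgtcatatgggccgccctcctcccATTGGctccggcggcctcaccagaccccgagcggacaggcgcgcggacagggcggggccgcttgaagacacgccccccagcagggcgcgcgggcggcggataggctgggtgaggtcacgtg

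Both strands were searched in windows of 250 bases before and 50 after each start. TCACNCCAC occurred in 408 of the 32851 windows of the table (1.24%), CCAAT in 37.4% and GGGCGG, the GC box of Sp1, in 35.7%. Among the members with a window, the sterol element core was matched once, in Hmgcs1, at position −137 counted from the start of the transcript. CCAAT was matched 4 times in the window of Hmgcs1 and once in each of those of Cyp51, Srebf2 and Insig1. GGGCGG was matched 5 times in Srebf2, 3 times in Hmgcs1 and in Insig1 and once in Cyp51. Dhcr7 has 3 windows in the table, 1 of which held CCAAT 2 times and GGGCGG 3 times, and another GGGCGG once. Sqle and Fdft1 were not matched in the table. These are matches of letters in a short window and were not tested for binding.

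Total counts per mouse lay between 31768076 and 42183029, and Control 5 and EtOH 1 were the most deeply sequenced. The lowest count of a member in any mouse was 952 (Dhcr7). Markers of cortical excitatory neurons were plentiful in every library, with a summed level of between 2204 and 2673 CPM (counts relative to the TMM-scaled library total) in the controls and between 2084 and 2650 CPM in the ethanol-administered mice, although 2 of the 6 were higher and 1 was lower. Marker RNA of several other regions and cell types nevertheless differed between the groups. All 10 striatum markers were lower in the ethanol-administered mice (summed 989 to 2370 CPM in controls and 234 to 302 CPM after ethanol), 6 of 8 hippocampus markers were higher (244 to 361 against 433 to 490 CPM), and 3 of 4 tested choroid plexus markers were higher (7.44 to 20.8 against 11.5 to 985 CPM). Of 10 oligodendrocyte markers, 9 were lower (4644 to 6154 against 3109 to 5545 CPM), a list that bears on cholesterol genes in particular because oligodendrocytes make myelin. Of 8 astrocyte markers, 3 were higher (3540 to 4038 against 3824 to 4367 CPM), 3 of 6 microglia markers were lower (251 to 275 against 224 to 247 CPM), and 1 of 5 endothelial markers was lower. No blood marker passed the test in edgeR, and 0 of 5 had an unadjusted p under 0.05. None of these lists had a marker at 0 in every mouse. Fits that took the oligodendrocyte score, or those of striatum and hippocampus, as covariates are given beside the results, and the part of the other lists in them was not tested.

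The members spanned a wide range of levels. Scaled to the merged length of the exons, control mice held 40.4 ± 1.63 CPM per kilobase of Hmgcs1 (SD, n = 7), followed by Srebf2 (34.4 ± 1.14), Fdft1 (21.02 ± 0.938), Insig1 (13.3 ± 1.67), Cyp51 (10.1 ± 0.388), Sqle (7.12 ± 0.625) and Dhcr7 (4.48 ± 0.533). No neighbours in this order overlapped in any of the 7 controls, and the order was the same in the 5 ethanol-administered mice. Hmgcs1, an early enzyme of the mevalonate pathway, was thus the most abundant of the 5 enzymes among the members. Dhcr7, at the end of cholesterol synthesis, was the least abundant. Levels per length of the other enzymes of the pathway were not examined. Without the length correction, Srebf2 stood above Hmgcs1 and Sqle above Cyp51. The length is that of all annotated isoforms joined, and which isoforms the cortex uses was not analysed here.

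**Figure D1:**
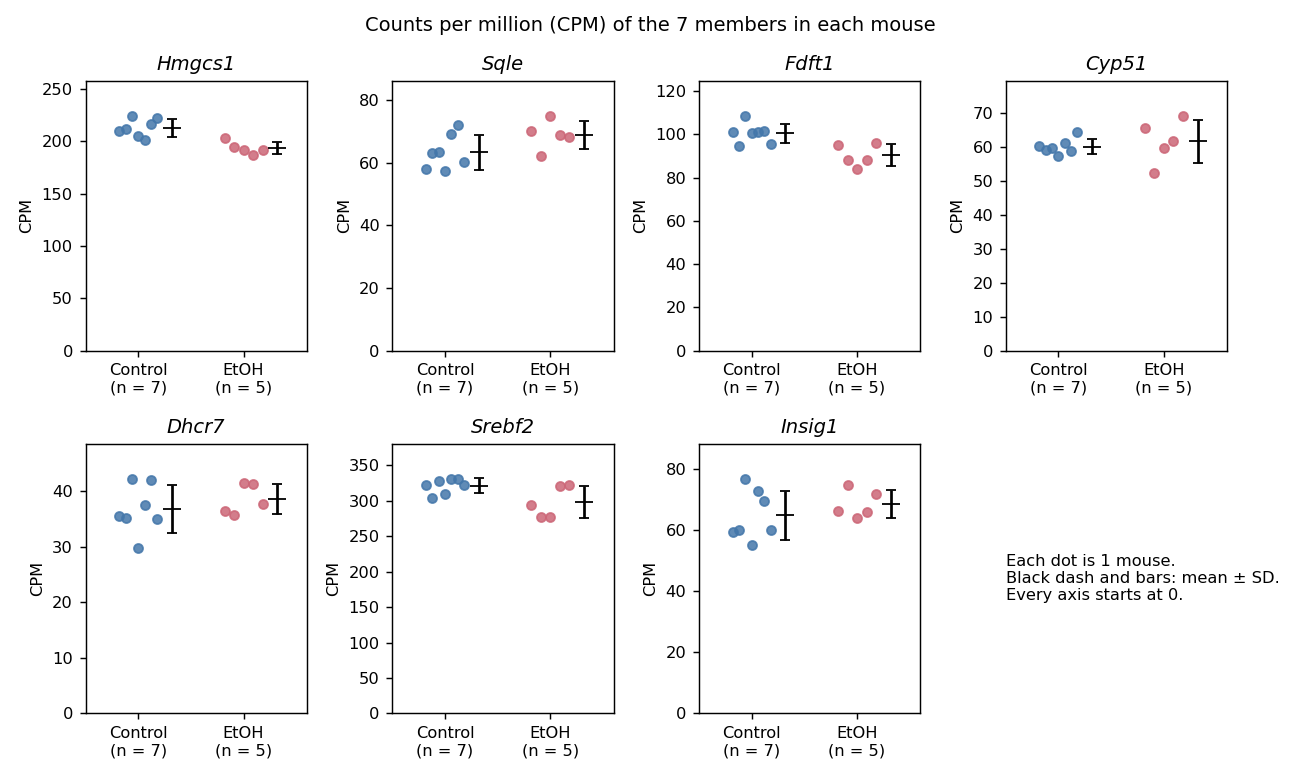
CPM (y axis, from 0) of each of the 7 members in each mouse, controls in blue (n = 7) and ethanol-administered mice in red (n = 5), with mean ± SD beside the dots. Hmgcs1 and Fdft1 lie lower after ethanol in most mice, and for every member the groups overlap.

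Between the groups, the members' changes were small, with a median size near that of genes at least as abundant as the least abundant member. Of the 7, 2 passed the test as lower in the ethanol-administered mice (Hmgcs1 and Fdft1, edgeR's quasi-likelihood test, Benjamini-Hochberg adjusted p under 0.05 over all genes tested) beside 11.6% of all genes tested, and 0 passed as higher beside 12.1%. With a log2 fold change above 0.5 in size required as well, 0 members were called lower (4.09% of all genes) and 0 higher (4.2%), whereas at an unadjusted p under 0.05 there were 2, both lower, and DESeq2 and limma voom also passed 2. The groups did not overlap in 0 of 7 members, where 4.84% of all genes lay wholly above and 4.96% wholly below the controls. The median size of the log2 fold change was 0.11 over the members, 0.15 over all genes tested and 0.12 over the 5625 genes at least as abundant as Dhcr7, the least abundant member.

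Hmgcs1 encodes the cytosolic HMG-CoA synthase, which condenses acetoacetyl-CoA with acetyl-CoA. Its gene lies at chr13:120151915-120170470 on the plus strand (GRCm39), and 12% of its exon bases overlap genes on the opposite strand. In the controls it ranged from 201 CPM (Control 5) over a median of 212 CPM to 224 CPM (Control 3). The ethanol-administered mice had 203, 195, 192, 187 and 192 CPM (EtOH 1 to 5). Thus 4 of 5 lay below every control, and EtOH 1 lay just above the lowest control. The mean level of 213 ± 8.57 CPM (SD, n = 7) in controls fell by 9.01% to 194 ± 5.77 CPM (SD, n = 5). This is −0.14 on the log2 scale (standard error 0.05, 95% interval −0.23 to −0.04, adjusted p = 0.0373 from edgeR). The test was passed in 5 of 12 fits that each left out 1 mouse, and was not passed without Control 1, 3, 6 or 7 or EtOH 3, 4 or 5 (adjusted p between 0.0547 and 0.0820). Nor was it passed with the filter of at least 1 count in any mouse (adjusted p = 0.0744) or with the replicate block (adjusted p = 0.166). With the oligodendrocyte marker score as a covariate the log2 fold change was −0.092 (adjusted p = 0.424), and with the striatum and hippocampus scores it was −0.34 (adjusted p = 0.855).

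Fdft1 encodes squalene synthase, the enzyme that joins farnesyl pyrophosphate into squalene and commits the pathway to sterols. It lies at chr14:63382189-63417027 on the minus strand. Controls ranged from 94.7 CPM (Control 2) over a median of 101 CPM to 108 CPM (Control 3). After ethanol the values were 95.3, 88.3, 84.0, 88.1 and 96.2 CPM (EtOH 1 to 5). EtOH 2, 3 and 4 lay below every control, and EtOH 1 and 5 were within the lower end of the controls. The mean fell by 9.99%, from 100 ± 4.48 CPM (SD, n = 7) to 90.4 ± 5.19 CPM (SD, n = 5), or −0.15 on the log2 scale (standard error 0.05, 95% interval −0.26 to −0.04, adjusted p = 0.0393 from edgeR). Fdft1 too passed in 5 of 12 fits without 1 mouse, and did not pass without Control 1, 3, 4 or 6 or EtOH 2, 3 or 4 (adjusted p between 0.0543 and 0.103), with the filter of at least 1 count in any mouse (adjusted p = 0.0713) or with the replicate block (adjusted p = 0.0896). EtOH 3, the mouse with the lowest Fdft1, also had the highest summed choroid plexus markers (985 CPM), and without it the log2 fold change was −0.13 (adjusted p = 0.103). The oligodendrocyte score as a covariate gave −0.14 (adjusted p = 0.263), and the striatum and hippocampus scores gave −0.14 (adjusted p = 0.966). Exons of Ctsb on the opposite strand overlap 24.8% of the exon bases of Fdft1, and whether the counting used strand is not given in the sources used here.

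Squalene epoxidase, the first oxygen-dependent enzyme of the pathway and one of its slow steps, is encoded by Sqle (chr15:59186869-59203043, plus strand, 5.29% of exon bases overlapped by a gene on the opposite strand). Its level in the controls spanned 57.2 CPM (Control 4) to 72.0 CPM (Control 6), with a median of 63.0 CPM. EtOH 1 to 5 had 70.0, 62.2, 74.8, 68.8 and 68.2 CPM. EtOH 3 alone lay above every control, and 4 of 5 were above the control median. The log2 fold change was 0.12 (standard error 0.06, 95% interval −0.02 to 0.26, adjusted p = 0.187 from edgeR) and did not pass, and the interval reaches from 1.08% below to 19.6% above the controls. With the oligodendrocyte score it was 0.015 (adjusted p = 0.939), and with the striatum and hippocampus scores 0.29 (adjusted p = 0.933).

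Cyp51, at chr5:4123416-4154751 on the minus strand, encodes lanosterol 14-alpha-demethylase, the first enzyme after lanosterol. The controls were narrowly spread, between 57.2 CPM (Control 4) and 64.4 CPM (Control 7) around a median of 59.7 CPM. Values after ethanol were 65.5, 52.2, 59.6, 61.7 and 69.0 CPM for EtOH 1 to 5, so that EtOH 1 and 5 lay above every control and EtOH 2 below every control. Accordingly the coefficient of variation was 3.83% in the controls and 10.3% after ethanol. The log2 fold change was 0.04 (standard error 0.06, 95% interval −0.09 to 0.17, adjusted p = 0.708 from edgeR), and it was −0.0095 without EtOH 5 and −0.051 with the oligodendrocyte score. The striatum and hippocampus scores gave 0.24 (adjusted p = 0.941). Genes on the opposite strand, among them Akap9, share 28.3% of its exon bases.

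Dhcr7, at chr7:143376740-143402149 on the plus strand, encodes 7-dehydrocholesterol reductase, which makes cholesterol from its immediate precursor. It had between 29.8 CPM (Control 4) and 42.2 CPM (Control 3) in the controls, with a median of 35.4 CPM. EtOH 1 to 5 had 36.4, 35.7, 41.4, 41.3 and 37.7 CPM. All 5 were inside the range of the controls and above their median. The log2 fold change of 0.07 (standard error 0.08, 95% interval −0.10 to 0.23, adjusted p = 0.574 from edgeR) did not pass. It was 0.00014 with the oligodendrocyte score (adjusted p = 1.00) and 0.49 with the striatum and hippocampus scores (adjusted p = 0.894). No other annotated gene overlaps its exons.

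Srebf2, which encodes SREBP2 itself, lies at chr15:82031382-82093201 on the plus strand, where 10.7% of its exon bases overlap genes on the opposite strand. In controls its level ran from 303 CPM (Control 2) over a median of 322 CPM to 331 CPM (Control 5), the smallest coefficient of variation of the members (3.33%). The ethanol-administered mice had 294, 277, 277, 321 and 322 CPM. EtOH 1, 2 and 3 lay below every control, while EtOH 4 and 5 stood near the control median. The log2 fold change was −0.11 (standard error 0.05, 95% interval −0.22 to 0.00, adjusted p = 0.145 from edgeR). An exact permutation test of its mean log2 CPM, two-sided and over 792 ways to split the mice, gave an unadjusted p of 0.0404, so the difference was at the edge of the spread between mice and did not pass over all genes. Leaving out single mice gave between −0.14 and −0.08, the oligodendrocyte score −0.16 (adjusted p = 0.189), and the striatum and hippocampus scores 0.20 (adjusted p = 0.933).

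Insig1, at chr5:28276315-28283668 on the plus strand, encodes the sterol-regulated protein that retains SCAP. The controls were widely spread, from 55.2 CPM (Control 4) over a median of 59.98 CPM to 76.6 CPM (Control 3), a coefficient of variation of 12.6%. After ethanol there were 66.3, 74.5, 63.9, 65.9 and 71.8 CPM in EtOH 1 to 5. All 5 lay above the control median and none above the highest control. Its log2 fold change of 0.08 (standard error 0.08, 95% interval −0.08 to 0.25, adjusted p = 0.483 from edgeR) did not pass. The oligodendrocyte score gave 0.16 (adjusted p = 0.385), and the striatum and hippocampus scores gave −0.61 (adjusted p = 0.846). The mean of Srebf2 was thus lower and that of Insig1 higher after ethanol, neither beyond the test.

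**Figure D2:**
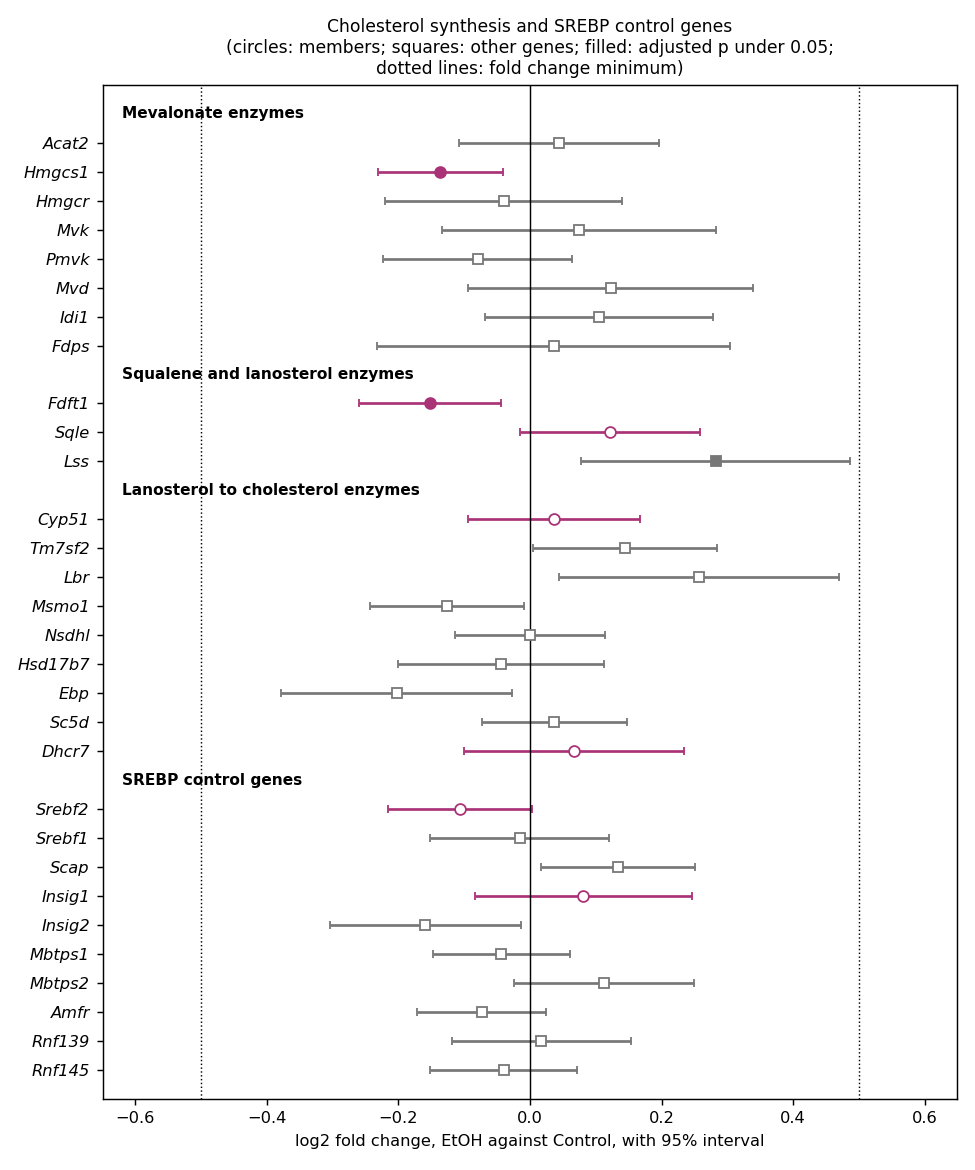
Log2 fold change (x axis) of EtOH against Control with its 95% interval for 20 of the synthesis enzymes in pathway order and 10 SREBP control genes (y axis), members as circles, other genes as squares, and filled symbols for adjusted p under 0.05. Hmgcs1, Fdft1 and Lss are filled, and no estimate reaches the dotted lines at 0.5 in either direction.

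The members were set beside the rest of the pathway. Of 21 enzymes between acetyl-CoA and cholesterol, all tested, 2 were lower (the members Hmgcs1 and Fdft1), 1 was higher and 18 did not pass, beside 11.6% of all genes passing as lower and 12.1% as higher. Of the 16 enzymes that are not members, 1 was higher, 0 were lower in edgeR and 5 had an unadjusted p under 0.05. The 21 enzymes had a median log2 fold change of 0.04 beside 7.2e-05 over all genes tested. By stage, 1 of 8 mevalonate enzymes passed as lower, 1 of 3 squalene and lanosterol enzymes passed as lower and 1 as higher, and 0 of 10 enzymes from lanosterol to cholesterol passed in edgeR, 4 of which had an unadjusted p under 0.05. The enzyme that was higher is Lss, lanosterol synthase, which closes the sterol rings. Its controls ranged from 29.0 CPM (Control 2) to 48.8 CPM (Control 5) with a median of 36.5 CPM, and the ethanol-administered mice were tightly grouped between 44.0 and 46.9 CPM, above 6 of 7 controls. The difference in Lss was 0.28 on the log2 scale (adjusted p = 0.0432 from edgeR, standard error 0.10). It passed in 3 of 12 fits without 1 mouse (without Control 5, 6 or 7), and its adjusted p lay between 0.0588 and 0.0883 in the others. With the oligodendrocyte score it was 0.27 (adjusted p = 0.243), and with the striatum and hippocampus scores −1.06 (adjusted p = 0.730). Of the 10 SREBP control genes, 0 passed in edgeR in either direction and 2 had an unadjusted p under 0.05, with a median of −0.03.

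**Figure D3:**
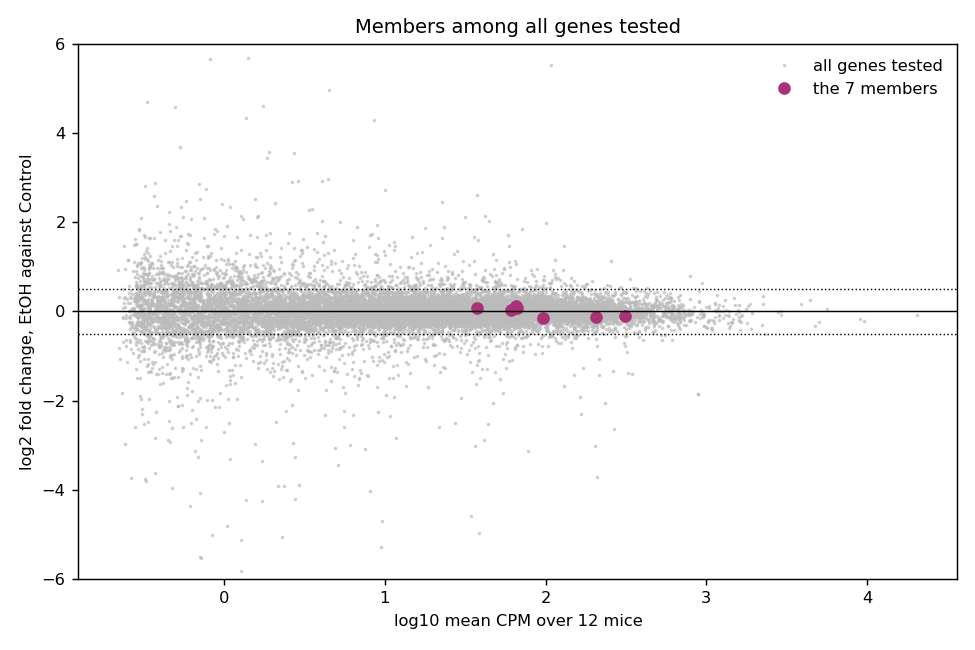
Log2 fold change of EtOH against Control (y axis) against log10 of the mean CPM over 12 mice (x axis) for the genes tested in grey and the 7 members in purple, with dotted lines at 0.5 in either direction. All members lie inside the dotted lines, to the right of most genes.

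Cholesterol is also taken up, carried and disposed of, and genes of these steps were examined beside those of synthesis. Among 10 sterol uptake and transport genes, 2 were lower and 0 higher, beside 11.6% and 12.1% of all genes tested. Of the 2, Scarb1, a lipoprotein receptor, had a log2 fold change of −0.21 (adjusted p = 0.0191 from edgeR), which did not pass without EtOH 1 (adjusted p = 0.0616), with the replicate block (adjusted p = 0.0580) or with the oligodendrocyte score (−0.26, adjusted p = 0.0684).

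Of 11 sterol efflux and turnover genes, 1 was higher and 3 were lower, beside 12.1% and 11.6% of all genes tested. Without overlap between the groups, 4.84% of all genes tested lay above and 4.96% below the controls. Cyp7b1, an oxysterol 7-alpha-hydroxylase, was higher in every ethanol-administered mouse (11.6 to 14.5 CPM) than in any control (8.87 to 11.2 CPM), with a log2 fold change of 0.36 (adjusted p = 0.00349 from edgeR). Cyp27a1, sterol 27-hydroxylase, was lower in every ethanol-administered mouse (2.58 to 3.80 CPM) than in any control (4.70 to 6.22 CPM), with a log2 fold change of −0.76 (adjusted p = 0.000273 from edgeR). Cyp46a1, the neuronal 24-hydroxylase through which the brain disposes of cholesterol, fell by 0.24 on the log2 scale (adjusted p = 0.0147 from edgeR), from a control range of 250 to 325 CPM to 222 to 269 CPM. Nr1h2, the oxysterol receptor LXR-beta, fell by 0.21 on the log2 scale (adjusted p = 0.0135 from edgeR). It has 1 annotated pseudogene of its name, with which it could share reads. With the oligodendrocyte score Nr1h2 did not pass (−0.17, adjusted p = 0.239), and Cyp27a1 was −0.49 (adjusted p = 0.0483). Cyp46a1 and Cyp7b1 passed in that fit as well.

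Of 10 genes of fatty acid synthesis, which the related factor SREBP1 drives, 2 were higher and 2 lower, beside 12.1% and 11.6% of all genes tested. Without overlap between the groups, 4.84% of all genes tested lay above and 4.96% below the controls. Elovl6 and Fads2, an elongase and a desaturase, were higher, with log2 fold changes of 0.35 and 0.26 (adjusted p = 0.00591 and 0.00162 from edgeR), and in both genes every ethanol-administered mouse lay above every control. Scd1 fell by 0.36 on the log2 scale (adjusted p = 0.00396 from edgeR). Fads1, next to Fads2 in the same desaturase family, fell by 0.13 (adjusted p = 0.0470 from edgeR), with no overlap between the groups, and passed in 2 of 12 fits without 1 mouse (without Control 5 or EtOH 2). Fads1 also did not pass with the filter of at least 1 count in any mouse (adjusted p = 0.0908), with the replicate block (adjusted p = 0.146) or without Control 5 and EtOH 1 together (adjusted p = 0.151). With the oligodendrocyte score Scd1 was −0.13 (adjusted p = 0.377), Fads2 0.18 (adjusted p = 0.126) and Fads1 −0.080 (adjusted p = 0.475), none of which passed, whereas Elovl6 passed (0.40, adjusted p = 0.0410). When the striatum and hippocampus scores were covariates, none of the members or of the other genes named from the lists passed, and in that fit 98.1% of the variance between group labels lay with the 2 scores, so that they and the treatment cannot be told apart. For the oligodendrocyte score the share was 50.8%.

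**Figure D4:**
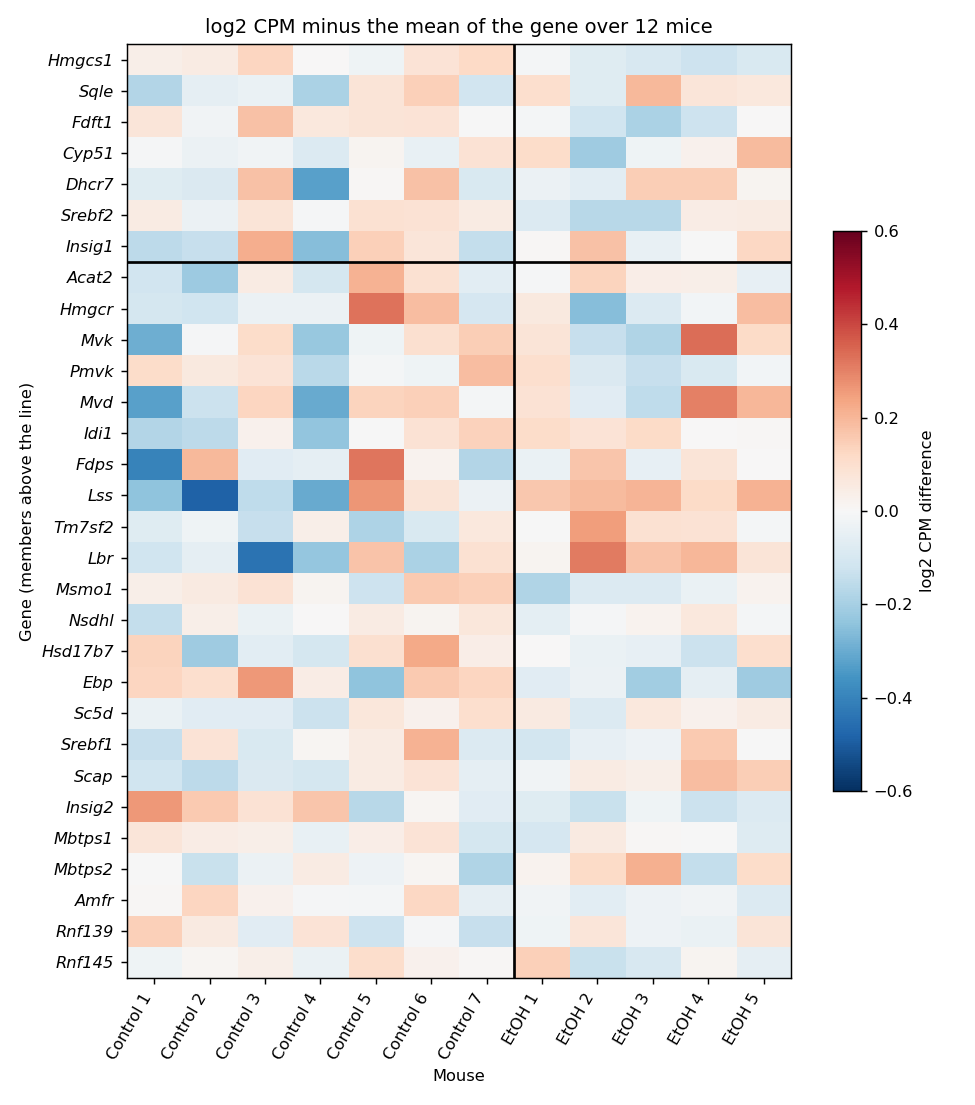
Log2 CPM of each gene minus its own mean over the 12 mice (colour, in log2 units, limits −0.6 and 0.6) for the 7 members above the line and 23 other synthesis and SREBP control genes below it, with controls left of the vertical line. Values lie between −0.49 and 0.34, and Control 4 is low and Control 3 high for most of the members.

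Mice differed from each other within groups in several members at once. As a description, the mean standardized deviation of the 7 members from their group mean was lowest in Control 4 (−1.05) and EtOH 2 (−0.74) and highest in Control 3 (0.97) and Control 6 (0.72). Control 4 was the lowest control in Sqle, Cyp51, Dhcr7 and Insig1, and Control 3 the highest in Hmgcs1, Fdft1, Dhcr7 and Insig1. Over the 7 controls, Pearson's r of log2 CPM was positive in 20 of 21 pairs of members, with a median of 0.358 and a range of −0.287 to 0.875. None of the 21 pairs passed an exact permutation test over all 5040 pairings after Benjamini-Hochberg adjustment, and 1 had an unadjusted p under 0.05. That pair was Dhcr7 and Insig1 (r = 0.875, exact p = 0.00337, adjusted p = 0.0708, Spearman's rho = 0.857, exact p = 0.0238, adjusted p = 0.167, n = 7), and without Control 3 and Control 4, the 2 mice farthest from the median of Dhcr7, r was 0.740. Over all 12 mice with the group means removed, the correlation of a member with the mean of the other 6 ran from 0.205 (Hmgcs1) to 0.600 (Dhcr7). Whether sets of other genes vary together as much in these libraries was not tested.

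Genes most like the members' common profile were not enzymes of the pathway. Over 12 mice with the group means removed, and among 14166 genes of at least 1 CPM, the highest correlations with the mean profile of the members were those of Cnksr3 (r = 0.896), Rrp36 (0.868), Dbp (0.842), Igsf8 (0.830) and Wdr45b (0.824). These are descriptions over points that share libraries. Mvd, mevalonate diphosphate decarboxylase, ranked 7 (r = 0.815). At the other end was Tm7sf2, a sterol C14-reductase, with r = −0.753.

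**Figure D5:**
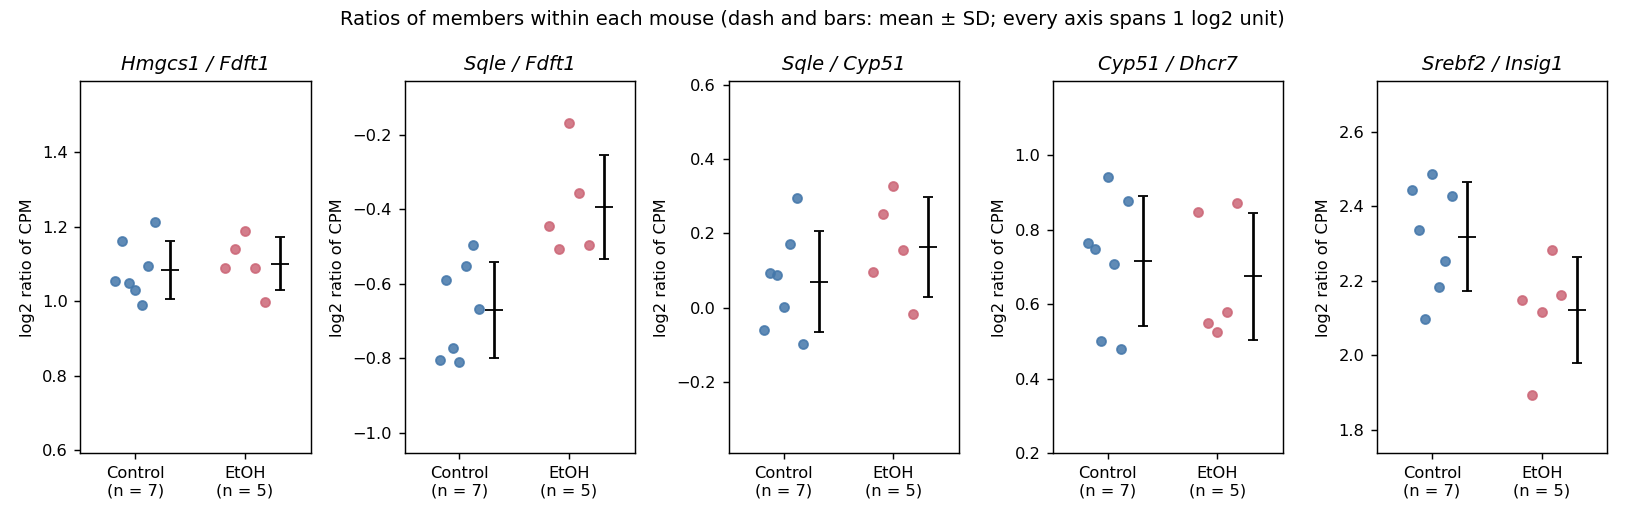
Log2 ratio of CPM (y axis, each spanning 1 log2 unit) of 5 pairs of members in each mouse, controls in blue (n = 7) and ethanol-administered mice in red (n = 5), with mean ± SD. The ratio of Hmgcs1 to Fdft1 is alike in both groups, and that of Sqle to Fdft1 is higher in most ethanol-administered mice than in the controls, with overlap.

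Ratios of members within a mouse do not depend on the library size, and were examined after the single values had been seen, as a description without a test. Hmgcs1 and Fdft1 kept a similar ratio to each other, which on the log2 scale was 1.08 ± 0.08 (SD, n = 7) in controls and 1.10 ± 0.07 (SD, n = 5) after ethanol. Fdft1 and Sqle encode successive enzymes. The log2 ratio of Sqle to Fdft1 lay between −0.81 and −0.50 in controls (mean −0.67 ± 0.13) and between −0.51 and −0.17 in ethanol-administered mice (mean −0.39 ± 0.14), and the ranges overlapped at their ends. The ratio of Sqle to Cyp51 was 0.07 ± 0.14 in controls and 0.16 ± 0.13 after ethanol, and that of Cyp51 to Dhcr7 was 0.72 ± 0.17 and 0.67 ± 0.17. For Srebf2 to Insig1 it was 2.32 ± 0.15 in controls and 2.12 ± 0.14 after ethanol, and the groups overlapped. None of the 21 ratios among members separated the groups without overlap.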

How the data were processed

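Cortex RNA of 7 control and 5 ethanol-administered mice was analysed. The authors checked reads with FastQC (0.11.9, per the submitters' processing notes), aligned them to GRCm39 with STAR and Gencode Release 28, counted them with featureCounts, and deposited expected counts per gene symbol without normalization. Values of 61 symbols were not whole, and all were rounded. Strand and multi-mapping settings are not given in the sources used here. All columns were matched to mice (0 unmatched), and no 2 libraries of a group agreed within sampling noise.

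Genes were filtered with filterByExpr, scaled by TMM and compared with edgeR's quasi-likelihood test (R 4.3.3, edgeR 4.0.16) on all 16059 genes, with Benjamini-Hochberg adjustment. A gene passed at an adjusted p under 0.05 and was called with a log2 fold change above 0.5 in size as well. Standard errors are the fold change divided by the square root of F. Log2 CPM used a prior count of 2. Correlations and the permutation test were computed with Python 3.11.15 and scipy 1.17.1. Positions are from Gencode M39. Alternatives were DESeq2 1.42.0, limma voom (limma 3.58.1), other scaling factors, filters and fold change minimums, marker scores as covariates, a block for the replicate number, and each mouse left out.

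The members, gene lists and rules were chosen with earlier results of these data known. All members were named, together with every pathway list gene that passed, the 5 genes most like the members, and, chosen after their values were seen, Mvd and Tm7sf2. A few listed genes are counted but not reported here singly. No p-value adjusted over the members alone is given. Scripts were tested on simulated data.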

Additional observations from a re-analysis of the deposited data

Results flagged for a closer look

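The total counts of 2 libraries stood apart from their groups by Dixon's criterion for 1 distant sample: Control 5 had 40690223 counts where the next control had 32356913, and EtOH 1 had 42183029 where the next ethanol-administered mouse had 33313165. Leaving both mice out, an alternative added after the data had been seen, gave log2 fold changes of −0.16 for Hmgcs1 (adjusted p = 0.0194 from edgeR) and −0.16 for Fdft1 (adjusted p = 0.0444 from edgeR), and the same 2 members passed.

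The criterion was also met by 4 other values. Summed choroid plexus markers were 985 CPM in EtOH 3, where the next ethanol-administered mouse had 275 CPM, and without EtOH 3 neither Hmgcs1 (−0.13, adjusted p = 0.0711 from edgeR) nor Fdft1 (−0.13, adjusted p = 0.103 from edgeR) passed. Summed endothelial markers were 198 CPM in EtOH 2 against 184 CPM in the next mouse, and summed blood markers were 128 CPM in Control 6 against 20.98 CPM in the next control. Cyp27a1 had 6.22 CPM in Control 7, where the next control had 5.30 CPM. Of 56 such comparisons chance gives about 2.8, and 6 met the criterion. No value of a member did.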

How the results depend on the processing

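Relative log expression and upper quartile factors, DESeq2, limma voom and the filter of at least 10 counts in every mouse left each member on its side of the threshold. The number of members passing as lower was 0 with the filter of at least 1 count in any mouse (Hmgcs1 −0.13, adjusted p = 0.0744, Fdft1 −0.15, adjusted p = 0.0713), 0 with the replicate block (Hmgcs1 −0.12, adjusted p = 0.166, Fdft1 −0.16, adjusted p = 0.0896), 0 with the oligodendrocyte score (−0.092 and −0.14) and 0 with the striatum and hippocampus scores (−0.34 and −0.14). The same fits gave 0 enzymes passing as lower, and both covariate fits gave 0 passing as higher. Replicate numbers are numbers within groups of different mice, and same-numbered mice did not deviate together (r between −0.108 and 0.0182). With no fold change minimum 2 members counted as called lower. Without single mice, the log2 fold change lay between −0.16 and −0.12 for Hmgcs1, −0.18 and −0.13 for Fdft1, −0.0095 and 0.083 for Cyp51, members passing as lower numbered 0 to 2, enzymes passing as higher 0 to 2 and as lower 0 to 4. Cyp51 was −0.051 with the oligodendrocyte score. With the striatum and hippocampus scores the direction turned for Srebf2 (0.20), Insig1 (−0.61), Lss (−1.06), Scarb1 (0.64), Nr1h2 (0.10), Cyp46a1 (0.89), Cyp7b1 (−0.12) and Elovl6 (−0.72). All genes passing as higher and lower numbered 703 and 824 with the oligodendrocyte score and 7 and 0 with the striatum and hippocampus scores, and those called as higher numbered 397 and 7 and as lower 0 with the latter. Without Control 5 and EtOH 1, 2 enzymes passed as higher. The cause of these changes was not tested. Places in the order of levels without the length correction were 2 for Hmgcs1, 1 for Srebf2, 6 for Cyp51 and 5 for Sqle.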
